A study of Homo sapiens with 6 samples.

Results

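RAB proteins are the largest branch of the RAS-related small GTPases and direct the traffic of membrane vesicles between organelles. The genes described here are the rows of the expression table whose symbol is RAB followed by a number, with or without a closing letter, so that partners such as exchange factors and effectors are left out. The rule found 63 genes among the 17862 in the table, and 55 of the 63 had enough reads to be tested. RNA was sequenced in 6 libraries of SCC-9, an established cell line from a human squamous carcinoma of the tongue, kept in DMEM/F12 with 10% FBS plus hydrocortisone at 400 ng/mL. Levels are given as TPM, transcript abundance scaled to gene length and to the library's total. A short hairpin RNA delivered on a plasmid targeted MTHFD2, a mitochondrial enzyme of folate metabolism, in 3 libraries (shMTHFD2), and the other 3 are the control group (shNC). The series title concerns MTHFD2 and the degradation of the transcription factor FOXO1. The labels give neither the number of hairpins nor of clones, and the series text speaks of wild-type and knock-out cells where the treatment label speaks of knockdown. The targeted transcript was measured at 38.5, 29.1 and 58.5 TPM in shMTHFD2, against 160, 168 and 150 TPM in shNC, and the word knockdown is used below (log2 fold change -1.95, SE 0.21, edgeR adjusted p = 0.00924).

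A RAB protein cycles between a GTP-bound form that sits on a membrane and recruits effectors, and a GDP-bound form that is drawn off the membrane by a GDP dissociation inhibitor (GDI). Exchange factors load GTP, GTPase-activating proteins speed its hydrolysis, and lipid (prenyl) groups at the C terminus anchor the protein. Most cells hold a common set for the core routes, such as RAB1 between the endoplasmic reticulum and the Golgi, RAB5 at early endosomes, RAB7A at late endosomes and RAB11 at recycling endosomes. Other members are known mainly from specialised cells, such as RAB3A from synaptic vesicles, RAB6B from neurons and RAB25 from epithelia.

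The libraries held 18676966 to 19838966 rounded read counts each. All 7 squamous epithelial markers examined reached 1 TPM, and their summed level was 8376 to 10424 TPM in shMTHFD2 and 9013 to 10000 TPM in shNC. The 4 endothelial markers summed to at most 0.55 TPM in shMTHFD2 and 0.62 TPM in shNC. The 5 immune markers summed to 14.0 to 17.2 TPM in shMTHFD2 and 16.4 to 25.8 TPM in shNC, with CD14 at 10.95 to 15.8 TPM in shMTHFD2 and 14.3 to 23.6 TPM in shNC, and the T cell gene CD3E was at 0 to 0.08 TPM in shMTHFD2 and 0 to 0.16 TPM in shNC. Of the 7 fibroblast markers 3 reached 1 TPM, and their sum was 12.7 to 24.2 TPM in shMTHFD2 against 6.09 to 8.73 TPM in shNC. COL1A1 made up most of that sum, PDGFRA was at 0.02 to 0.04 TPM in shMTHFD2 and in shNC, and the part of these markers in the results below was not tested. The knockdown libraries varied more among themselves than the controls did. The SD of log2 CPM (counts scaled to library size) within shMTHFD2 was the larger one for 47 of the 55 tested RAB genes (85.5%), and for 83.0% of all tested genes.

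Together the RAB genes took a similar small part of the transcriptome in both groups. Their summed level was 2911, 2920 and 3227 TPM in shMTHFD2, against 3046, 3028 and 2897 TPM in shNC. The groups overlap, and shMTHFD2 replicate 3 held the highest sum. In each library the 10 most abundant members carried 64.4 to 66.7% of the family's TPM. Members at 1 TPM or more numbered 52, 54 and 51 in shMTHFD2, against 51, 48 and 50 in shNC.

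The most abundant members include several of the core routes. RAB5C, an early endosome GTPase, had the highest mean, at 389 ± 45.8 TPM in shMTHFD2 and 431 ± 23.6 TPM in shNC (SD, n = 3 each). RAB7A, which governs late endosome and lysosome fusion, followed at 385 ± 39.4 TPM in shMTHFD2 and 378 ± 24.1 TPM in shNC. The levels of RAB5C and RAB7A overlapped in shMTHFD2 but not in shNC. RAB1B, which acts between the endoplasmic reticulum and the Golgi, was at 283 ± 32.6 TPM in shMTHFD2 and 322 ± 8.75 TPM in shNC. Then came RAB13, a regulator of junction traffic in epithelia, at 172 ± 14.5 TPM in shMTHFD2 and 164 ± 6.38 TPM in shNC. RAB1A averaged 152 ± 21.5 TPM in shMTHFD2 and 145 ± 4.42 TPM in shNC. The Golgi GTPases RAB2A and RAB6A and the recycling GTPase RAB11B had shMTHFD2 means of 123, 122 and 111 TPM and shNC means of 119, 120 and 102 TPM. RAB34 and RAB10 completed the 10 highest, RAB34 at 89.3 ± 15.8 TPM in shMTHFD2 and 109 ± 3.85 TPM in shNC, and RAB10, a carrier of exocytic cargo, at 103 ± 17.5 TPM in shMTHFD2 and 95.0 ± 5.32 TPM in shNC. None of these 10 passed the test between the groups, with log2 fold changes of shMTHFD2 over shNC from -0.33 to 0.07 in edgeR's quasi-likelihood test. RAB6A has close copies in RAB6C and RAB6D, as RAB40A has in RAB40AL, so the split of reads among them is uncertain.

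**Figure D1:**
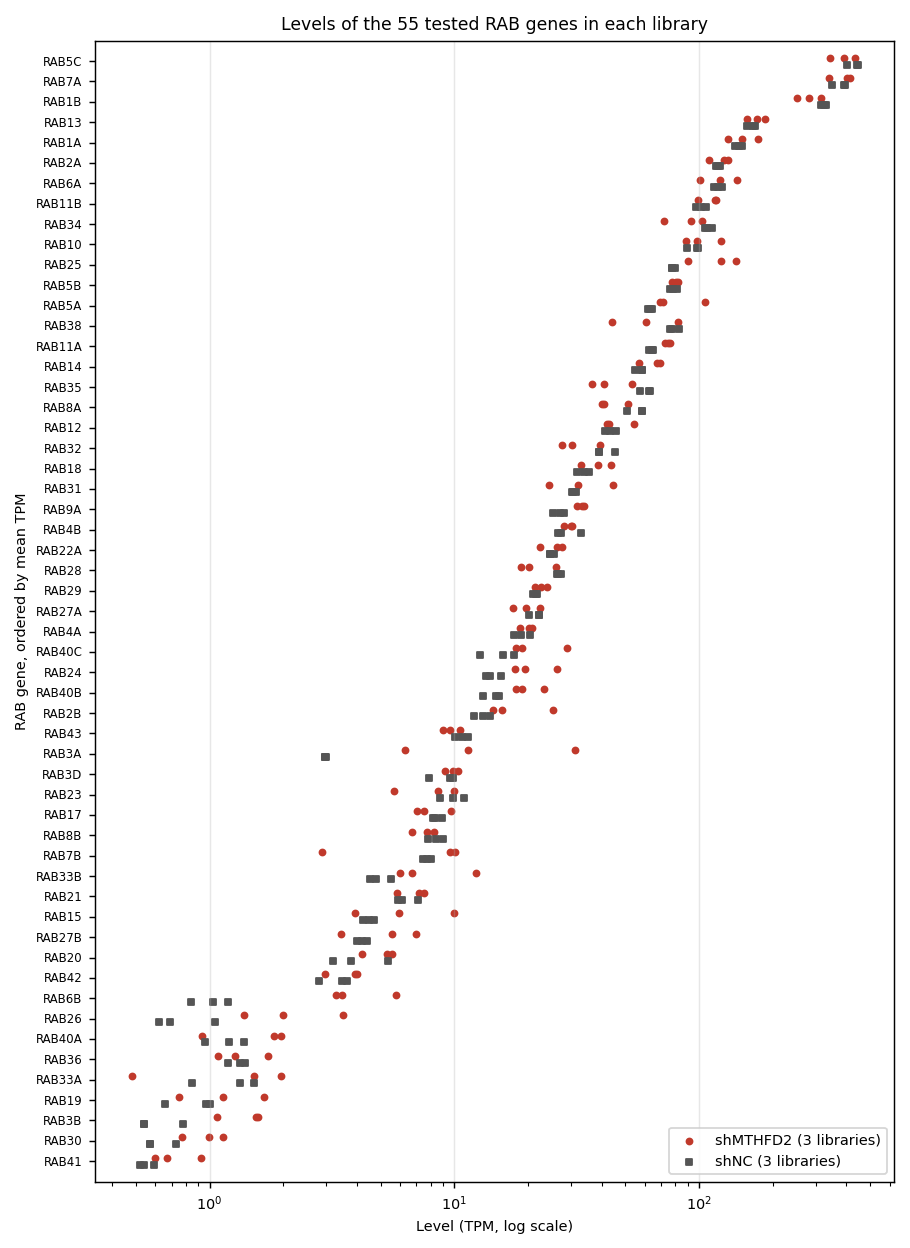
Level of each of the 55 tested RAB genes in each library in TPM on a log axis, with shMTHFD2 as red circles above shNC as grey squares in each row, ordered by mean level. The 8 members with a mean of 100 TPM or more overlap between groups, while RAB3A and RAB6B stand to the right of their controls in all 3 shMTHFD2 libraries.

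At the other end of the range, 8 members did not pass the filter on low counts and were not tested: RAB37, RAB6D, RAB39B, RAB39A, RAB9B, RAB44, RAB6C and RAB3C. Their levels were 0 to 0.36 TPM over the 6 libraries, with at most 8.31 estimated counts. A count of 0 allows up to 3 counts, so differences among these members were not detectable at this depth.

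Of the 55 tested members, 2 rose and 0 fell in shMTHFD2 at a Benjamini-Hochberg adjusted p under 0.05, that is 3.64%, beside 5.43% of all 13710 tested genes (2.97% higher and 2.47% lower). The family's median log2 fold change was 0.05, beside 0.01 for all tested genes. Of the members 35 lay above 0 and 20 below, beside 6994 above and 6716 below among all tested genes. The share of members called was thus no higher than the background. An unadjusted p under 0.05 was found for 10 members in the higher direction and 6 in the lower, together 16 of 55, beside 28.7% of all tested genes. DESeq2 called 6 higher and 2 lower, beside 8.07% and 6.69% of all genes. At an adjusted p under 0.1 the edgeR fit called 4 higher and 2 lower, beside 7.55% and 7.28%. The count was 2 higher and 0 lower with DESeq2 size factors (5.2% of all genes called), upper quartile scaling (4.85%), no filter (3.65%), a mean of at least 5 CPM (4.81%) and limma-voom (5.06%). It was 1 higher and 0 lower with limma on log2(TPM + 1) (4.57%) and on log2(TPM + 0.1) (4.61%), and 0 with the replicate number as a block (0.117%). RNA was taken from bulk cultures, in which fewer expressing cells and less RNA per cell cannot be told apart.

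The members that rose were RAB6B and RAB3B. RAB6B (Entrez Gene 51560, chromosome 3) is the paralog of RAB6A that was described as enriched in brain, and it binds Golgi and vesicle membranes. Its level was 3.47, 5.78 and 3.27 TPM in shMTHFD2, against 1.03, 0.84 and 1.19 TPM in shNC. Every knockdown library lay above every control, with shMTHFD2 replicate 2 highest. The log2 fold change was 1.98 (SE 0.29, edgeR adjusted p = 0.0204), resting on 169 to 300 reads per library in shMTHFD2 and 45 to 65 in shNC. RAB3B (Entrez Gene 5865, chromosome 1), a member of the RAB3 group of regulated secretion, was listed at 1.58, 1.55 and 1.07 TPM in shMTHFD2, against 0.78, 0.54 and 0.54 TPM in shNC. The groups do not overlap, and shMTHFD2 replicate 3 is nearest to the controls. Its log2 fold change was 1.30 (SE 0.24, edgeR adjusted p = 0.0330). Both transcripts are scarce: RAB6A, the abundant paralog of RAB6B, was at 101, 122 and 142 TPM in shMTHFD2 and at 124, 120 and 116 TPM in shNC.

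Both calls depended on which libraries were fitted. Without shMTHFD2 replicate 1 the edgeR adjusted p was 0.0787 for RAB6B and 0.119 for RAB3B. Without shNC replicate 1, 2 or 3 it was 0.138, 0.140 and 0.0931 for RAB6B, and 0.157, 0.186 and 0.123 for RAB3B. In each of these 4 edgeR fits 0 RAB genes were called, beside 0.194%, 0.00716%, 0.00716% and 0.0358% of all tested genes, while 10, 9, 8 and 10 had an unadjusted p under 0.05. The log2 change was at least 1.67 for RAB6B and 1.18 for RAB3B over the 6 omissions. The RAB3B call also ended on the log2(TPM + 1) scale, with a log2 change of 0.56 and a limma adjusted p of 0.0822, and on the log2(TPM + 0.1) scale, with 1.057 and 0.0769.

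RAB3A had the largest fold change of the family without passing in edgeR. RAB3A (Entrez Gene 5864, chromosome 19) controls the release of synaptic vesicles and other regulated exocytosis. It was at 11.3, 31.1 and 6.30 TPM in shMTHFD2, against 2.99, 2.95 and 2.97 TPM in shNC. All 3 knockdown libraries were above all 3 controls, but they spanned a wide range, with shMTHFD2 replicate 2 far the highest. The log2 fold change was 2.42 (SE 0.58, edgeR adjusted p = 0.0555, DESeq2 adjusted p = 0.000127). Without shMTHFD2 replicate 2 the log2 change was 1.53 (adjusted p = 0.0133), and without replicate 3 it was 2.82 (adjusted p = 0.00976), so RAB3A passed in both of those fits. RAB26, which is linked to secretory granules, showed the same order of libraries at a lower level, with 2.00, 3.50 and 1.38 TPM in shMTHFD2 against 1.05, 0.62 and 0.69 TPM in shNC (log2 1.51, SE 0.43, edgeR adjusted p = 0.0807). RAB26 passed without shMTHFD2 replicate 3 (adjusted p = 0.0213). The collagen gene COL1A1, the most abundant fibroblast marker, had the same order, with 11.4, 22.5 and 9.6 TPM in shMTHFD2. It was at 6.40, 4.23 and 6.51 TPM in shNC. COL1A2, at 0.58, 0.68 and 1.05 TPM in shMTHFD2, and DCN, at 0.79, 0.75 and 1.5 TPM, did not share this order. LUM was at 0.16, 0.12 and 0.29 TPM in shMTHFD2 against 0.49, 0.24 and 0.23 TPM in shNC. The part of these markers in the RAB values was not tested.

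**Figure D2:**
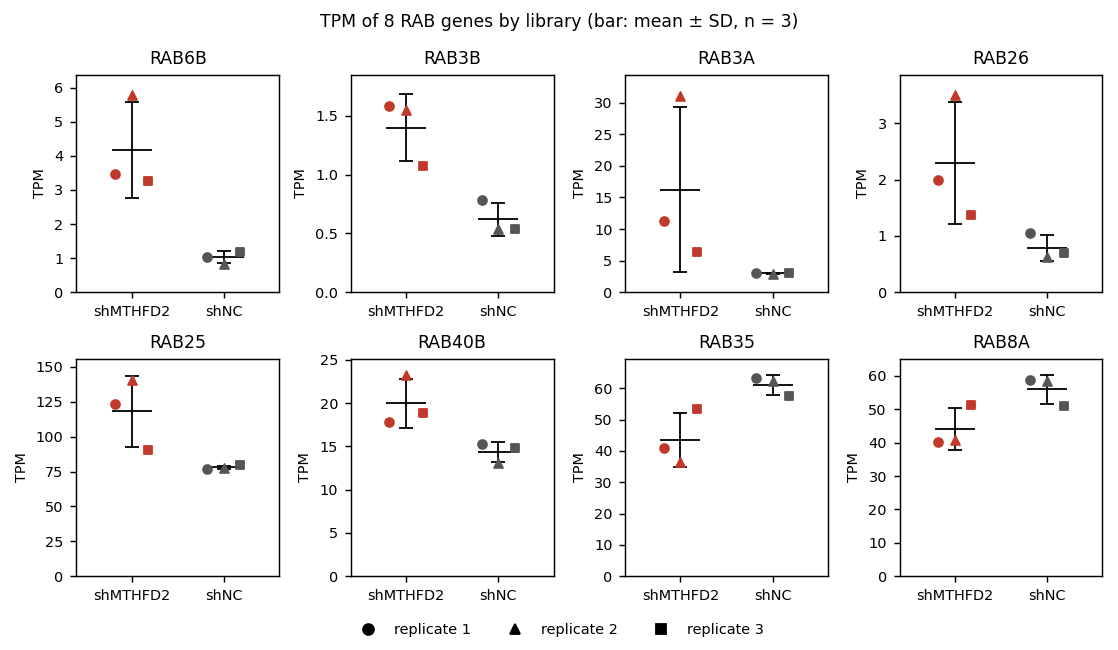
TPM of 8 RAB genes in each library on linear axes from 0, with shMTHFD2 in red left of shNC in grey, marker shape giving the replicate number and bars the mean ± SD (n = 3). RAB6B, RAB3B, RAB3A, RAB26, RAB25 and RAB40B lie above the controls in all 3 shMTHFD2 libraries and RAB35 below, while RAB8A overlaps in shMTHFD2 replicate 3.

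The promoter windows of RAB6B and RAB3B, the members called, and of RAB3A, with the largest fold change, are printed because these genes were higher in all 3 knockdown libraries. Each runs from 250 bases before to 50 after the gene's start in RefSeq (GRCh38.p14, minus strand), written 5′ to 3′. Capitals mark the word ACGTG on either strand, a form of the core of the hypoxia response element. The windows are chr3:133895833-133896132 for RAB6B, chr1:51990651-51990950 for RAB3B and chr19:18203993-18204292 for RAB3A.
RAB6B: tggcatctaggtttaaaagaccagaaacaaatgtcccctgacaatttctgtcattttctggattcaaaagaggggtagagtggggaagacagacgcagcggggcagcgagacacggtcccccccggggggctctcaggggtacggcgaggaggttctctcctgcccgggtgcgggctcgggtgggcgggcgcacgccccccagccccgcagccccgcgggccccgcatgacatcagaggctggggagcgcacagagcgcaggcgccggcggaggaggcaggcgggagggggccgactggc
RAB3B: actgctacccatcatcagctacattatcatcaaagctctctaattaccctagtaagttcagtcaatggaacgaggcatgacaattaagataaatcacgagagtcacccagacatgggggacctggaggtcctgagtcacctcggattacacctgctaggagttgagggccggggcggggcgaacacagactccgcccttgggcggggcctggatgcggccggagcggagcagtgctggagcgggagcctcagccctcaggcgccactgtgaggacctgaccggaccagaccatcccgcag
RAB3A: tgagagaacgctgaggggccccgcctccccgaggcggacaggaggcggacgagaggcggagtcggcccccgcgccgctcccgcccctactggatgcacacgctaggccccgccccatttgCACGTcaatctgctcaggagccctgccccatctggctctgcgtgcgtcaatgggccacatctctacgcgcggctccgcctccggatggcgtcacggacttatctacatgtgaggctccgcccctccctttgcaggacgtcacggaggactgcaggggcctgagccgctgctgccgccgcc
Both strands were searched for GTAAACA, the core word of FOXO sites, for CACGTG, a form of the E-box, and for ACGTG, which CACGTG also contains. RAB3A held ACGTG once, and no other match to these words was found in the 3 windows. Other forms of these sites were not searched. Among 45 tested RAB genes with a window in the table, GTAAACA occurred in 0, CACGTG in 6 (13.3%) and ACGTG in 14 (31.1%). The shares over all 27305 windows, 1 per gene, were 3.41%, 7.43% and 21.6%. Those windows include genes that were not tested here, so they are an unlike set to the tested RAB genes. A match describes these letters only and does not show that a factor binds. The windows were rich in G and C, with 67.7% for RAB6B, 58.7% for RAB3B and 69.7% for RAB3A, beside a median of 65.0% over the 45 RAB windows and 58.3% over all windows.

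Among early endosome and uptake GTPases, 0 of 9 tested members passed in edgeR, DESeq2 or limma-voom, and 0 had an unadjusted p under 0.05. For this and the role groups below, edgeR called 5.43% of all tested genes, and 28.7% had an unadjusted p under 0.05. DESeq2 called 8.07% higher and 6.69% lower, and limma-voom called 5.06% in either direction. RAB5A, unlike its paralogs RAB5B and RAB5C, did not overlap between the groups. It was at 68.9, 105 and 71.4 TPM in shMTHFD2 against 64.1, 63.1 and 61.8 TPM in shNC (log2 0.33, SE 0.18, edgeR adjusted p = 0.255). It lay above the controls in every knockdown library, with shMTHFD2 replicate 2 highest. Its share of the summed RAB5A, RAB5B and RAB5C level was 12.9%, 19.9% and 12.2% in shMTHFD2, against 11%, 10.7% and 11.4% in shNC. RAB5B was at 77.4, 81.7 and 80.7 TPM in shMTHFD2 and at 78.1, 81.3 and 76.4 TPM in shNC.

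Of 7 recycling GTPases 0 passed in edgeR (2 at an unadjusted p under 0.05) or in limma-voom, while DESeq2 called RAB25 higher (adjusted p = 0.0353) and RAB35 lower (adjusted p = 0.00797). RAB25, the epithelial relative of RAB11 that serves apical recycling, was at 123, 141 and 90.3 TPM in shMTHFD2, against 77.2, 77.4 and 79.5 TPM in shNC. The knockdown libraries all lay above the controls, which spanned little. Its log2 fold change was 0.55 (SE 0.18, edgeR adjusted p = 0.102), and it passed without shMTHFD2 replicate 3 (log2 0.75, adjusted p = 0.00807). RAB35, which drives fast recycling to the plasma membrane, was at 40.9, 36.6 and 53.3 TPM in shMTHFD2, against 63.2, 62.3 and 57.5 TPM in shNC. All 3 knockdown values were below all 3 controls, with shMTHFD2 replicate 3 nearest to them. Its log2 fold change was -0.53 (SE 0.13, edgeR adjusted p = 0.0557), with adjusted p = 0.0266 once shMTHFD2 replicate 2 was left out and adjusted p = 0.00997 once replicate 3 was. RAB11A was at 74.6, 72.8 and 76.2 TPM in shMTHFD2, above 64.1, 64.8 and 62.5 TPM in shNC, with a narrow range in both groups.

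The sum of RAB11A, RAB11B and RAB25 separated the groups. It was 297, 330 and 284 TPM in shMTHFD2, against 248, 244 and 239 TPM in shNC. Within it, RAB25 made up 41.5%, 42.7% and 31.8% in shMTHFD2, and 31.1%, 31.8% and 33.2% in shNC, so that its share overlapped through shMTHFD2 replicate 3. Among the other subfamily sums examined, those of RAB3 and RAB40 also separated the groups, with shMTHFD2 above. For scale, 22.5% of all single tested genes had every shMTHFD2 value above every control. No such share was computed for sums of genes. The sums of RAB1, RAB2, RAB4, RAB5, RAB6, RAB7, RAB27 and RAB33 overlapped. So did those of RAB8 with RAB10 and RAB13, RAB22A with RAB31, and RAB32 with RAB38.

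In the late endosome, lysosome and autophagy group 0 of 10 tested members passed in edgeR, DESeq2 or limma-voom. An unadjusted p under 0.05 was found for 4 in each, beside 28.7% of all tested genes in edgeR. RAB24, an atypical RAB tied to autophagy, was at 19.4, 26.4 and 17.7 TPM in shMTHFD2, against 14.0, 15.5 and 13.5 TPM in shNC. It lay above the controls in each knockdown library (log2 0.51, SE 0.19, edgeR adjusted p = 0.136). RAB32 and RAB38, which share a role in lysosome-related organelles such as melanosomes, both had lower mean levels in shMTHFD2. RAB32 was at 30.1, 27.7 and 39.3 TPM in shMTHFD2 and at 39.1, 45.4 and 38.8 TPM in shNC (log2 -0.40, SE 0.15, adjusted p = 0.128). RAB38 was at 60.7, 43.9 and 82.1 TPM in shMTHFD2 and at 77.5, 76.2 and 83.1 TPM in shNC. In both genes shMTHFD2 replicate 3 lay within the control range. RAB34, implicated in lysosome positioning and in cilia, was at 92.8, 72.1 and 103 TPM in shMTHFD2, below 106, 113 and 108 TPM in shNC (log2 -0.33, SE 0.12, adjusted p = 0.137). RAB9A, which returns receptors from late endosomes to the Golgi, was at 33.3, 31.8 and 33.9 TPM in shMTHFD2, above 27.1, 28.1 and 25.2 TPM in shNC (log2 0.24). RAB7B moved in both directions, with 9.63, 2.87 and 10.1 TPM in shMTHFD2 against 8.0, 7.42 and 7.71 TPM in shNC. The shMTHFD2 replicates 1 and 3 lay above all controls and replicate 2 lay below them.

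Of 13 tested GTPases of the endoplasmic reticulum and the Golgi, RAB6B rose and 0 fell in edgeR (4 at an unadjusted p under 0.05), and DESeq2 and limma-voom also called RAB6B alone. RAB33B, a Golgi member that also binds autophagy proteins, was at 6.73, 12.2 and 6.02 TPM in shMTHFD2, above 4.54, 4.80 and 5.52 TPM in shNC. RAB30, another Golgi GTPase, was at 0.99, 1.13 and 0.77 TPM in shMTHFD2, above 0.57, 0.57 and 0.73 TPM in shNC. RAB2B was at 15.7, 25.3 and 14.4 TPM in shMTHFD2 and at 14.0, 12.0 and 13.1 TPM in shNC, while its abundant paralog RAB2A overlapped between the groups. RAB2B, RAB33B and RAB30 all stood highest in shMTHFD2 replicate 2, as RAB5A and RAB24 did.

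Of 10 tested GTPases of secretion and plasma membrane traffic, RAB3B rose and 0 fell in edgeR (4 at an unadjusted p under 0.05) and in limma-voom. DESeq2 also called RAB3A and RAB26 higher (adjusted p = 0.0290 for RAB26) and RAB8A lower (adjusted p = 0.0301). RAB8A, which carries cargo to the plasma membrane and the cilium, was at 40.1, 40.8 and 51.4 TPM in shMTHFD2, against 58.7, 58.3 and 50.9 TPM in shNC. The groups overlap through shMTHFD2 replicate 3 and shNC replicate 3. Its log2 fold change was -0.40 (SE 0.11, edgeR adjusted p = 0.0775), with an adjusted p of 0.0190 without shMTHFD2 replicate 3. RAB27A, a GTPase of exosome and granule release, was at 19.6, 17.4 and 22.4 TPM in shMTHFD2 and at 22.2, 20.3 and 22.3 TPM in shNC, and its paralog RAB27B at 5.57, 3.43 and 7.0 TPM in shMTHFD2 and at 4.01, 4.20 and 4.41 TPM in shNC. Both overlap between the groups.

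The makeup of the RAB3 group differed between the groups of libraries. RAB3D, the member known from secretory granules, was at 10.3, 9.86 and 9.17 TPM in shMTHFD2 and at 9.83, 7.87 and 9.56 TPM in shNC, with overlap. RAB3A made up 48.8%, 73.1% and 38.1% of the summed RAB3 level in shMTHFD2, against 22%, 26.0% and 22.7% in shNC. RAB3D made up 44.4%, 23.2% and 55.4% in shMTHFD2, and 72.3%, 69.3% and 73.1% in shNC. The RAB3 sum was 23.2, 42.5 and 16.5 TPM in shMTHFD2, above 13.6, 11.4 and 13.1 TPM in shNC. The RAB6 sum did not separate the groups, at 105, 128 and 146 TPM in shMTHFD2 and 125, 121 and 117 TPM in shNC, although RAB6B's share of it was 3.32%, 4.52% and 2.24% in shMTHFD2 and 0.82%, 0.70% and 1.02% in shNC.

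**Figure D3:**
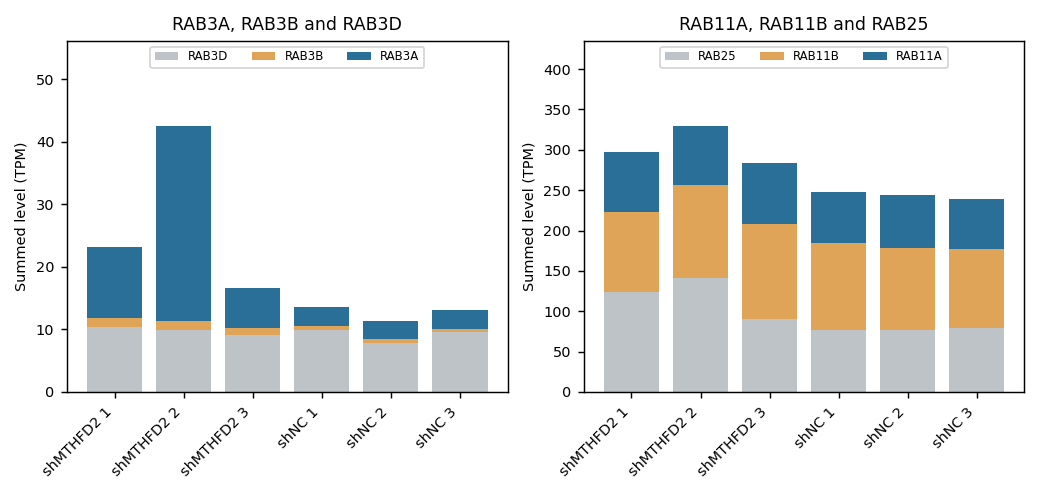
Stacked TPM of RAB3A, RAB3B and RAB3D (left) and of RAB11A, RAB11B and RAB25 (right) in each library, shMTHFD2 libraries left of shNC. RAB3A accounts for most of the spread of the RAB3 bars among the shMTHFD2 libraries, and the RAB11 and RAB25 bars of shMTHFD2 (284 to 330 TPM) all exceed those of shNC (239 to 248 TPM).

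The remaining members include the RAB40 proteins, whose SOCS box recruits a cullin ubiquitin ligase, and 2 GTPases of cilia. Of 6 tested, 0 passed in edgeR (2 at an unadjusted p under 0.05) or in limma-voom, while DESeq2 called RAB40B higher (adjusted p = 0.0465). RAB40B was at 17.9, 23.2 and 18.8 TPM in shMTHFD2, above 15.3, 13.1 and 14.8 TPM in shNC (log2 0.50, SE 0.16, edgeR adjusted p = 0.102). RAB40C was at 17.9, 29.0 and 18.9 TPM in shMTHFD2, above 15.8, 12.7 and 17.5 TPM in shNC. The sum of RAB40A, RAB40B and RAB40C was 36.7, 54.0 and 39.7 TPM in shMTHFD2, against 32.5, 27.0 and 33.3 TPM in shNC. RAB28, a GTPase of the photoreceptor cilium, was at 20.2, 18.6 and 26.1 TPM in shMTHFD2, below 27.4, 26.6 and 26.3 TPM in shNC (log2 -0.36, SE 0.13, adjusted p = 0.128). RAB23, a regulator of hedgehog signalling at the cilium, was at 8.55, 5.67 and 9.92 TPM in shMTHFD2 and at 9.89, 10.9 and 8.76 TPM in shNC.

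**Figure D4:**
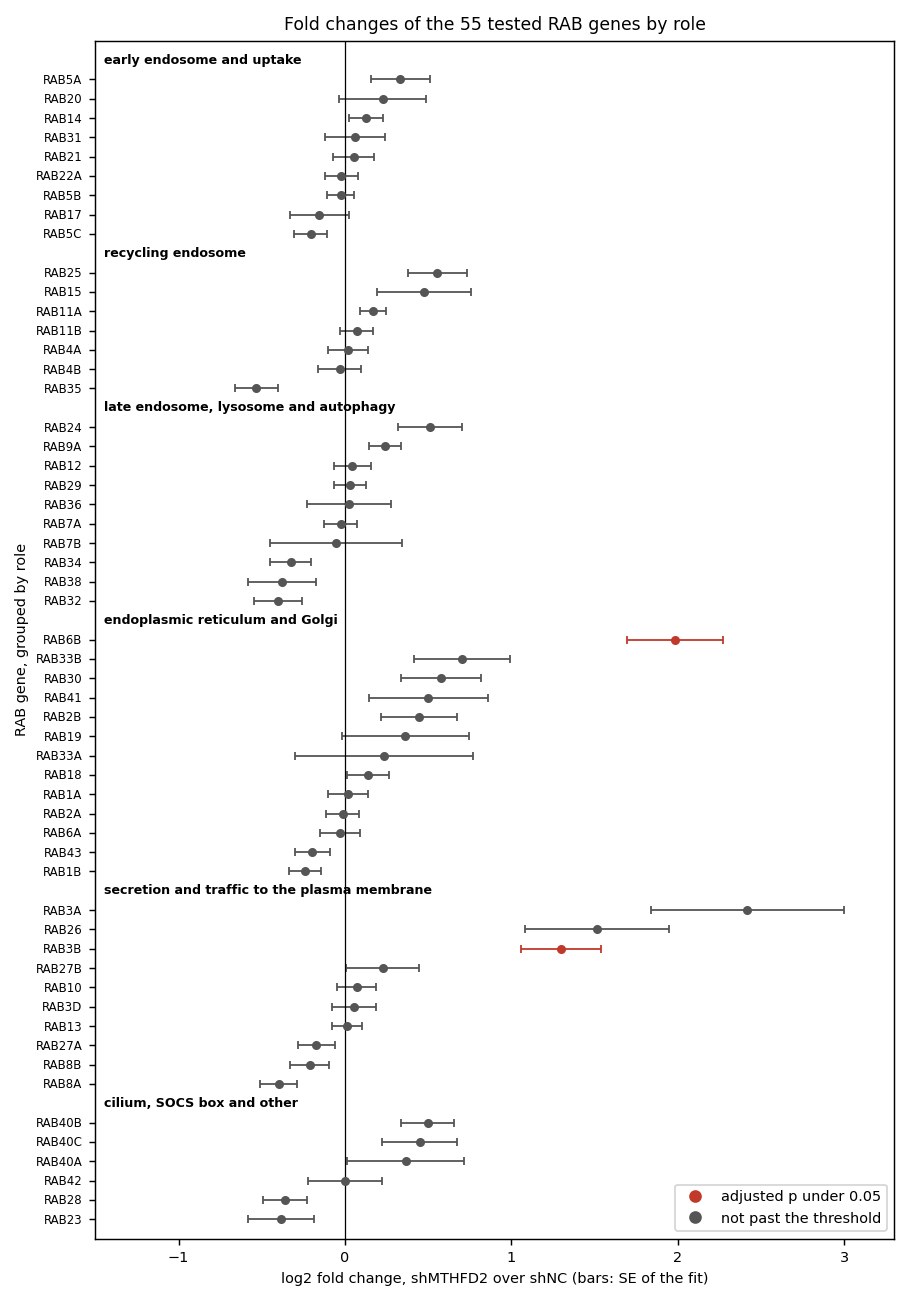
Log2 fold change of shMTHFD2 over shNC and its SE from edgeR for the 55 tested RAB genes, grouped by role, with genes at an adjusted p under 0.05 in red. RAB6B and RAB3B are red, RAB3A has the largest value and the widest bar, and most core members lie near 0.

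In all, the groups' TPM ranges did not overlap for 18 of the 55 tested members (32.7%), beside 35.7% of all tested genes. The knockdown libraries were above the controls for 15 (27.3%) and below for 3 (5.45%), beside 22.5% and 13.2% of all tested genes. Of the 15 above, shMTHFD2 replicate 2 was the highest library for 11 and replicate 3 was nearest to the controls for 10. RAB28, RAB34 and RAB35 were the 3 below, and in each of them replicate 2 was lowest and replicate 3 nearest to the controls. By mean level, 0 of 8 members at 100 TPM or more were separated, 11 of 26 between 10 and 100 TPM, 5 of 19 between 1 and 10 TPM and both tested members below 1 TPM. The shares over all tested genes in these classes were 41.1%, 34.8%, 37.8% and 28.0%, and the differences between classes were not tested.

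The 3 knockdown libraries moved unequally. The median absolute deviation of the tested RAB genes from the shNC mean, on the log2 CPM scale, was 0.23, 0.35 and 0.16 in shMTHFD2 replicates 1, 2 and 3, beside 0.24, 0.43 and 0.20 over all tested genes. Replicate 2 was the knockdown library farthest from the controls for 31 of the 55 members (56.4%), beside 62.8% of all tested genes. A deviation of more than 0.5 was seen for 9, 22 and 8 members in the 3 knockdown libraries (16.4%, 40% and 14.5%), beside 20.4%, 43.3% and 15.6% of all tested genes, and for 0 members in each control. MTHFD2 itself was at 24.2%, 18.2% and 36.7% of the shNC mean in the same libraries, so the order of the remaining MTHFD2 level and the order of the deviations run opposite to each other over 3 libraries, too few for a test.

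**Figure D5:**
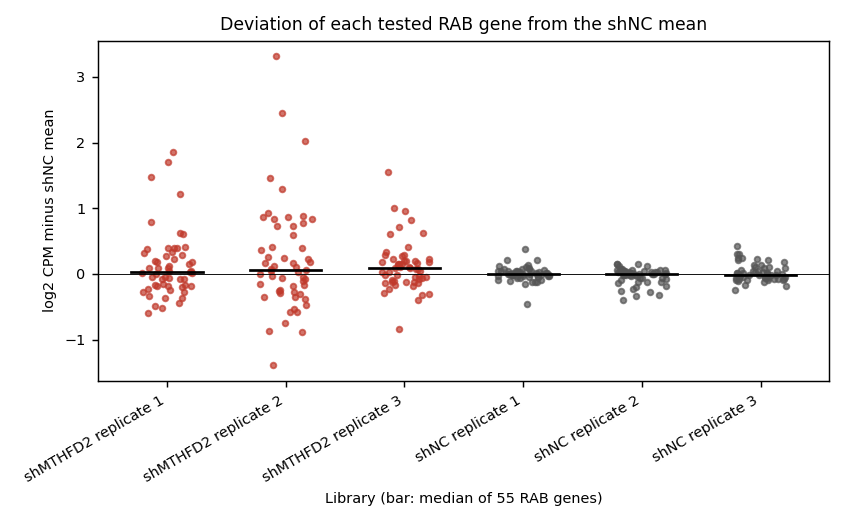
Difference of each tested RAB gene from its shNC mean on the log2 CPM scale in each library, with the median as a bar. Points spread widest in shMTHFD2 replicate 2, and the medians of all 6 libraries lie close to 0.

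The number of calls changed with the library left out. Without shMTHFD2 replicate 2, 4 members rose (RAB6B, RAB3A, RAB3B and RAB15) and RAB35 fell, beside 7.14% and 7.09% of all tested genes. RAB15, a recycling GTPase that is named here because of this call, was at 5.92, 3.94 and 9.98 TPM in shMTHFD2 and at 4.50, 4.69 and 4.23 TPM in shNC, so that replicate 2 was the only knockdown library below the controls. Without shMTHFD2 replicate 3, 9 members rose and 5 fell, beside 13.6% and 12.6% of all tested genes. The 9 were RAB3B, RAB6B, RAB25, RAB3A, RAB26, RAB24, RAB40B, RAB33B and RAB30, and the 5 were RAB35, RAB8A, RAB28, RAB32 and RAB38. 

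Partners of the RAB proteins were examined in 4 lists. Of 132 tested partner genes 2 rose and 3 fell (3.79%), close to the 5.43% of all genes. Of 37 GTPase-activating proteins, 3 fell and 0 rose in edgeR and in limma-voom, while DESeq2 called 4 lower and 2 higher. Over all tested genes edgeR called 2.47% lower and 2.97% higher, and DESeq2 called 6.69% lower and 8.07% higher. TBC1D13, known to act on RAB35, was at 7.86, 7.34 and 8.80 TPM in shMTHFD2, against 15.8, 15.8 and 15.8 TPM in shNC. The knockdown values were all far below the controls, which hardly differed, and the log2 fold change was -1.04 (SE 0.10, edgeR adjusted p = 0.00776). TBC1D22B fell by 0.71 on the log2 scale (SE 0.11), and TBC1D10B, also known to act on RAB35, fell by 0.50 (SE 0.10). TBC1D10B was at 30.4, 36.4 and 37.3 TPM in shMTHFD2, against 50.1, 46.2 and 46.0 TPM in shNC.

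Of 43 exchange factors SBF2 rose and 0 fell in edgeR and in limma-voom, while DESeq2 called 6 higher and 1 lower. For the lists in this paragraph, the shares over all tested genes were 2.97% higher and 2.47% lower in edgeR. They were 8.07% and 6.69% in DESeq2, and 5.06% in either direction in limma-voom. SBF2, an exchange factor for RAB28 of the myotubularin family, was at 32.1, 32.8 and 31.8 TPM in shMTHFD2, against 21.8, 23.2 and 21.4 TPM in shNC (log2 0.49, SE 0.09, edgeR adjusted p = 0.0275). Both groups were narrow and far apart. Of 44 effectors RAB11FIP1, which binds RAB11 and RAB25, rose to 10.8, 10.3 and 10.0 TPM in shMTHFD2, against 7.02, 7.69 and 7.10 TPM in shNC (log2 0.45, SE 0.10, edgeR adjusted p = 0.0474). It was the only effector called in edgeR and in limma-voom, while DESeq2 called 3 higher (RAB11FIP1, RAB11FIP4 and SYTL1). In edgeR, DESeq2 and limma-voom 0 effectors fell. RAB11FIP1 passed in 5 of 9 alternative settings that kept all libraries. Of 8 genes of prenylation and GDP dissociation 0 passed in edgeR (4 at an unadjusted p under 0.05) or in limma-voom. The escort protein CHML, named after its values were seen, had the largest change there, with 8.57, 3.23 and 5.79 TPM in shMTHFD2 against 13.3, 15.0 and 10.5 TPM in shNC (log2 -1.19, SE 0.32, edgeR adjusted p = 0.0697), and DESeq2 called it lower (adjusted p = 0.00453). The partner calls moved with single libraries too: 0 rose and 0 fell without shMTHFD2 replicate 1 or any shNC library, 11 rose and 6 fell without shMTHFD2 replicate 2, beside 7.14% and 7.09% of all genes, and 19 rose and 11 fell without replicate 3, beside 13.6% and 12.6%.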

How the data were processed

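RNA was extracted with Trizol, per the labels' protocols. For the aligner, the counter, the annotation and strandedness, no statement was found (not given in the sources used here). Mouse build mm10 is named in the submitters' processing notes for these human cells, so no coordinates of the files were used. The authors' deposited estimated counts were rounded to whole numbers for testing, while levels came from TPM as deposited by the authors, as did the overlap of groups. Another 20 value columns were not used.

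The test was edgeR 4.0.16 (R 4.3.3) with filterByExpr, TMM scaling and a robust quasi-likelihood fit of the 2 groups over the whole table, at a Benjamini-Hochberg adjusted p of 0.05. SE is the size of the log2 fold change over the square root of F. The fit was also run on simulated counts with the same dispersion in both groups. The wider spread within shMTHFD2 was not simulated, so that run does not cover it. Log2 CPM took a prior count of 2, and the biological coefficient of variation was 16.7%. The series text states 3 biological replicates per condition but not whether cultures were separate, so p-values cover the spread between these libraries, which may be technical. No replicates were duplicates (chi-square per degree of freedom at least 3.50).

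Members, lists and tests were chosen with earlier results of these data known. Named genes were the members past the threshold, the 10 others with the smallest p, the 10 most abundant, up to 6 called without shMTHFD2 replicate 2 or 3, and up to 4 called genes per partner list. Further members were picked with their values in view. Alternatives used each library omitted, a replicate block, other scalings and filters, DESeq2 1.42.0, limma 3.58.1 and, for TPM, genes with at least 1 TPM in 3 libraries. All 63 identifiers were found in a RefSeq gene table. Protein features were not analysed here. Some comparison genes are not reported here.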

Additional observations from a re-analysis of the deposited data

How the results depend on the processing

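The RAB counts stayed at 2 higher and 0 lower with DESeq2 size factors, upper quartile scaling, no filter, a mean of at least 5 CPM and limma-voom. Leaving out 1 library gave 0 to 9 RAB genes higher and 0 to 5 lower, and 0 to 19 partner genes higher and 0 to 11 lower. Same-numbered libraries did not deviate together (correlations across genes 0.00, -0.24 and -0.19 for replicates 1, 2 and 3). This does not settle whether the numbers pair the samples, because the wider spread in shMTHFD2 could hide a shared deviation. The median SD of log2 CPM over all tested genes was 0.24 in shMTHFD2 and 0.09 in shNC. With the replicate number as a block, 0 RAB genes were higher and 0 lower (RAB6B adjusted p = 0.0897, RAB3B adjusted p = 0.109), 0 partner genes were higher and 0 lower, and 16 genes were called in all. DESeq2 gave 6 RAB genes higher and 2 lower, and 11 partner genes higher and 6 lower, beside 8.07% and 6.69% of all tested genes. Log2(TPM + 1) and log2(TPM + 0.1) each gave 1 RAB gene and 4 partner genes higher (4.57% and 4.61% of all genes called in either direction). Upper quartile scaling gave 4 partner genes higher and no filter gave 1 (4.85% and 3.65% of all genes called in either direction). An adjusted p of 0.1 gave 4 RAB genes higher and 2 lower.

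The family median of 0.05 was 0.0188 to 0.0837 over the omitted libraries, 0.11 with upper quartile scaling (all genes 0.07, beside 0.01), 0.0810 on log2(TPM + 1) and 0.0822 on log2(TPM + 0.1). MTHFD2 lost its call without shMTHFD2 replicate 1 or any shNC library, with log2 changes of -2.19 to -1.74 over the 6 omissions. The causes were not tested. Groups that did not overlap numbered 18 by TPM, beside 35.7% of all tested genes. By CPM the number was 20, and the share over all tested genes was not computed on that scale. No gene recomputed under these settings changed direction. Members under 1 TPM are limited by depth.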

Other observations

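Genes with RAB-like names or folds outside the symbol rule were also measured, and were chosen after the data were seen. RABL6, a RAB-like GTPase, fell to 51.6, 44.7 and 66.4 TPM in shMTHFD2, against 92.8, 89.2 and 82.9 TPM in shNC (log2 -0.77, SE 0.14, edgeR adjusted p = 0.0277). The adjusted p was 0.119 without shMTHFD2 replicate 1 and 0.17, 0.174 and 0.109 without shNC replicates 1, 2 and 3, so that call ended in each. RABL2A, a RAB-like protein of the cilium, was at 8.74, 12.2 and 6.92 TPM in shMTHFD2, above 6.39, 5.38 and 6.88 TPM in shNC (log2 0.54, adjusted p = 0.212). RABL2A shares most of its sequence with RABL2B, so the split of reads between them is uncertain. RABL2B was at 19.4, 22.9 and 16.6 TPM in shMTHFD2 and at 17.1, 16.0 and 17.5 TPM in shNC. RABL3 and IFT22 overlapped between the groups. IFT27 was at 16.8, 17.6 and 14.2 TPM in shMTHFD2 and at 14.1, 11.9 and 14.1 TPM in shNC (adjusted p = 0.381).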
